A study of Mus musculus with 6 samples.

Results

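Voltage-gated sodium channels open when the neuronal membrane depolarises and carry the inward current of the action potential. The genes described here encode 7 subunits of these channels, taken by symbol from the count tables of 6 RNA-seq libraries of mouse prefrontal cortex. They comprise 4 pore (alpha) subunits, Scn1a, Scn2a, Scn3a and Scn8a, and 3 accessory (beta) subunits, Scn2b, Scn3b and Scn4b. They are 7 of 54134 gene symbols listed, and all 7 were among the 18705 genes abundant enough to be tested. The study used mice aged 6 to 8 weeks in 3 groups of 2 biological duplicates: wild-type animals (a C57BL/6 and C3H cross) given vehicle, heterozygous Shank3+/ΔC animals given vehicle, and heterozygous Shank3+/ΔC animals given GSK-LSD1. Shank3+/ΔC animals carry 1 allele of the postsynaptic scaffold gene Shank3 that lacks the C-terminal part of the protein and 1 intact allele. GSK-LSD1 is an inhibitor of the histone demethylase LSD1, encoded by Kdm1a. A strain is labelled only for the wild-type group, and there was no wild-type group given the inhibitor, so the drug can be compared only among mutants.

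Each channel is built around 1 alpha subunit, which forms the pore, senses voltage and inactivates, with beta subunits bound to it that alter gating and help to place the channel on the membrane. In the adult cortex NaV1.2 (Scn2a) is abundant in excitatory neurons and unmyelinated axons, NaV1.6 (Scn8a) is the main channel of mature nodes of Ranvier and of the distal axon initial segment, where spikes start, and NaV1.1 (Scn1a) is important in fast-spiking inhibitory neurons. NaV1.3 (Scn3a) is best known from the embryonic brain. The beta subunits are small single-pass membrane proteins with an immunoglobulin-like domain: those of Scn2b and Scn4b form a disulfide bond with the pore subunit, and that of Scn3b binds without one.

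The 4 pore genes are close relatives, which matters for how reads are assigned to them. Of all 50-base words in the transcripts of a gene (GENCODE M21), 4.03% for Scn1a, 5.62% for Scn2a and 6.49% for Scn3a also occurred in another Scn gene, against 0.0374% for Scn8a and 0% for Scn2b, Scn3b and Scn4b. Reads from those shared words cannot be placed on 1 gene by sequence alone, and how the authors' counting treated them is not given in the sources used here.

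The genes lie in 3 places in the GRCm38 genome. Scn3a (chr2:65457118-65567627, minus strand), Scn2a (chr2:65620771-65767447, plus strand) and Scn1a (chr2:66270778-66440840, minus strand) sit in 1 cluster on chromosome 2. Scn3b (chr9:40269217-40291618), Scn2b (chr9:45117782-45130070) and Scn4b (chr9:45138395-45154152) are on the plus strand of chromosome 9, the last pair as neighbours. Scn8a is alone on chromosome 15 (chr15:100869858-101045938, plus strand). All are protein-coding, none shares exonic bases with another annotated gene, and their exonic lengths run from 4.66 kb for Scn2b to 15.77 kb for Scn8a.

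Scn8a, the subunit with the clearest difference between groups, and Scn1a, the pore subunit nearest to no difference between Shank3+/ΔC and wild type on vehicle, are shown with every CpG, the dinucleotide at which DNA is methylated, in capitals (250 bases before the start site, 5′ to 3′ on the gene's strand, RefSeq, GRCm38.p6; Scn8a chr15:100870395-100870644, Scn1a chr2:66440838-66441087):
Scn8a: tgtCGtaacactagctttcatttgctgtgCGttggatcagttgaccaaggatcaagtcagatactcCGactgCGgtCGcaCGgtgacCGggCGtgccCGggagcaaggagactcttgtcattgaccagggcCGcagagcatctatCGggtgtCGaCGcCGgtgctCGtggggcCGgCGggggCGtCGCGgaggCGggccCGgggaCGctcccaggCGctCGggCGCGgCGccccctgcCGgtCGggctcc
Scn1a: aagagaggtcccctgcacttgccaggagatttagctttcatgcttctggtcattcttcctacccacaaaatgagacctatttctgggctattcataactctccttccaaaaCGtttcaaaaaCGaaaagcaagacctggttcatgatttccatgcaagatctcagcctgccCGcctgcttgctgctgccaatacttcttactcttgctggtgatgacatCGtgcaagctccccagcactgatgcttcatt
This Scn8a window, 1 of 2 in the table, was 68% G and C with 30 CpGs, and 94.1% of the 32851 promoter windows in the same table held fewer. The second Scn8a window (chr15:100936021-100936270) was 53.2% G and C with 9 CpGs, and 59.7% held fewer. Both Scn8a windows precede RefSeq start sites and lie inside the GENCODE span of the gene given above, not before its first base. The window of Scn1a was 46.8% G and C with 4 CpGs, and 37.8% of windows held fewer, against a median of 6. RefSeq windows matched 5 of the 7 genes (7 windows), and CpG numbers ran from 1 for Scn2b to 23 for Scn4b in the windows of the other members. A search of both strands for 6 motifs found 1 match in these 7 windows, a TATA box in a second start of Scn2a. The motifs, with the share of all windows holding each, were the GC box GGGCGG (32.7%), the cAMP response element TGACGTCA (1.55%), the E-box CACGTG (6.02%), the EGR site GCGTGGGCG (0.536%), the left part of the REST element TTCAGCACC (0.301%) and the TATA box TATAAA (12.4%). A match, or its lack, describes the letters of a window only.

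Sequencing depth was 14133834 to 28646960 counted reads per library. Levels below are CPM (the reads of a gene relative to the total counted in its library) scaled by TMM, a correction for library composition, and levels of different genes are compared only as CPM per kb of exon. Shank3 itself, counted over the whole gene, lay between 146 and 174 CPM in all 6 libraries with the groups overlapping. A deletion confined to its 3′ part cannot be checked from such a count. Kdm1a averaged 97.5 ± 6.22 CPM (SD, n = 2) in wild type, 91.7 ± 7.68 in Shank3+/ΔC on vehicle and 92.6 ± 3.77 with GSK-LSD1, and none of its 3 differences passed the test in edgeR (adjusted p = 0.792, 0.999 and 0.806 for the comparisons in the order used below). Among all tested genes, 186 were called lower and 52 higher in Shank3+/ΔC on vehicle against wild type, and 20 and 15 with library size alone as the scaling. With GSK-LSD1 against wild type these numbers were 372 and 119, and 142 and 111.

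In wild-type cortex Scn2a was the most abundant pore transcript, at 92.9 ± 0.318 CPM per kb (SD, n = 2). Scn8a followed at 41.9 ± 4.48, Scn1a at 18.8 ± 1.91 and Scn3a at 9.498 ± 1.36 CPM per kb. No neighbours in this order overlapped between libraries. Among the beta subunits Scn2b stood at 85.1 ± 2.90, Scn3b at 27.3 ± 4.17 and Scn4b at 7.52 ± 0.111 CPM per kb.

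The first comparison, Shank3+/ΔC against wild type with both on vehicle, asks how the mutation alters expression. Scn8a fell and was the only 1 of the 7 subunits to pass the test (edgeR quasi-likelihood test, two-sided, Benjamini-Hochberg adjusted p under 0.05 over all tested genes), while over all genes 0.994% were called lower and 0.278% higher. Scn2a, Scn3a and Scn3b were lower in both mutant libraries than in both wild-type libraries without passing. Scn1a and Scn2b overlapped between groups, and Scn4b was higher in both mutant libraries, again without passing. The median log2 fold change of the 7 was -0.38, beside 0.02 for all tested genes. In bulk tissue, fewer cells of a type and less RNA per cell cannot be told apart.

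**Figure D1:**
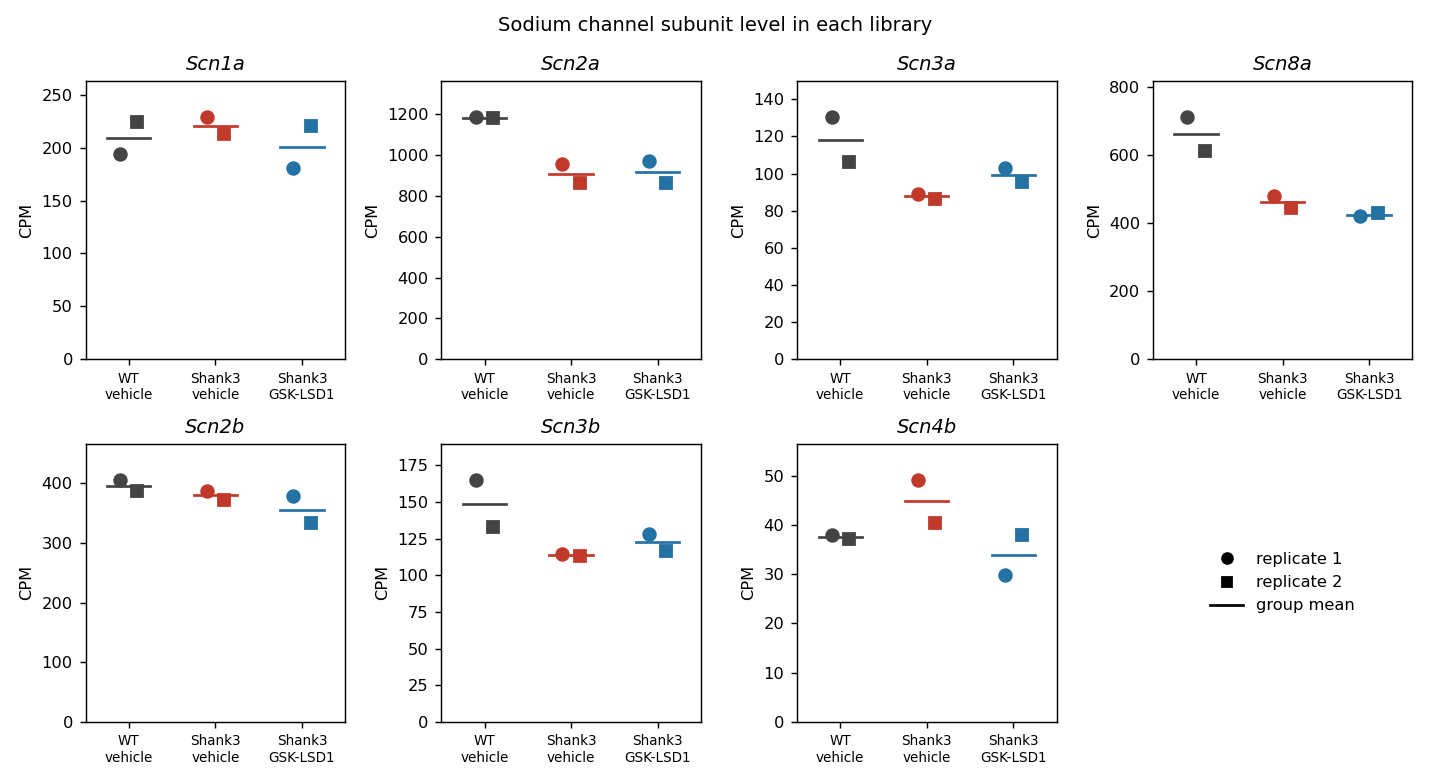
Level of each subunit in CPM (y axis, from 0) in the 6 libraries; each panel is 1 gene, circles are replicate 1, squares replicate 2, and lines the group means. Scn8a stands at 611 and 711 CPM in wild type and between 419 and 479 CPM in all 4 Shank3+/ΔC libraries, while Scn1a overlaps across the 3 groups.

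Scn8a read 711 and 611 CPM in the wild-type libraries, 479 and 446 CPM in Shank3+/ΔC on vehicle, and 419 and 431 CPM in Shank3+/ΔC with GSK-LSD1. Both wild-type libraries were above all 4 mutant libraries, and the treated libraries were the lowest. Against wild type, Scn8a fell by 0.52 on the log2 scale in Shank3+/ΔC on vehicle (SE 0.11, 95% interval -0.75 to -0.28, 1.43-fold lower, adjusted p = 0.0341 by edgeR), rank 130 by p of 18705 genes. The call was kept in 12 of 19 alternative settings, with the log2 fold change between -0.63 and -0.36. The call was lost when wild-type replicate 1, or either Shank3+/ΔC vehicle library, was left out. It was also lost with library size scaling, a fit that was not robust, or the level of oligodendrocyte markers as a covariate. A correction for exonic length and GC content lost it as well (edgeR adjusted p = 0.123).

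Scn2a read 1186 and 1180.5 CPM in wild type, 956 and 862 CPM in Shank3+/ΔC on vehicle, and 972 and 865 CPM with GSK-LSD1. Wild type was higher than both mutant groups without overlap, and the mutant groups overlapped each other. The log2 fold change of Shank3+/ΔC on vehicle against wild type was -0.38 ± 0.12 (SE), 95% interval -0.62 to -0.14, with an edgeR adjusted p of 0.115. Scn2a is the most abundant of the pore genes, so its difference is the largest in CPM per kb: 92.9 in wild type and 71.4 ± 5.21 (SD, n = 2) in Shank3+/ΔC on vehicle. DESeq2, run as an alternative, called Scn2a lower here (adjusted p = 0.00854), as did edgeR with either GSK-LSD1 library left out (0.0475 and 0.0448).

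Scn3a read 130.3 and 106 CPM in wild type, 89.0 and 86.4 CPM in Shank3+/ΔC on vehicle, and 103 and 95.4 CPM with GSK-LSD1. The vehicle mutants were lowest, the treated mutants intermediate, and none of the 3 groups overlapped. The log2 fold change of Shank3+/ΔC on vehicle against wild type was -0.43 ± 0.11 (SE), 95% interval -0.67 to -0.19, with an edgeR adjusted p of 0.0682. It passed in 5 of 19 alternatives, among them DESeq2 (adjusted p = 0.0213).

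Scn1a, the pore subunit of fast-spiking inhibitory neurons, read 195 and 225 CPM in wild type, 229 and 213 CPM in Shank3+/ΔC on vehicle, and 181 and 221 CPM with GSK-LSD1. All 3 groups overlapped, and replicates differed by as much as the groups. The log2 fold change of Shank3+/ΔC on vehicle against wild type was 0.08 ± 0.12 (SE), with a 95% interval of -0.17 to 0.32, and its sign changed in 2 of 19 alternatives.

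Scn3b, whose beta subunit binds without a disulfide bond, read 165 and 133 CPM in wild type, 114.5 and 114 CPM in Shank3+/ΔC on vehicle, and 128 and 117 CPM with GSK-LSD1. As with Scn3a, the vehicle mutants were lowest and no groups overlapped. Against wild type the log2 fold change in Shank3+/ΔC on vehicle was -0.38 ± 0.11 (SE), 95% interval -0.62 to -0.14, edgeR adjusted p = 0.109. It passed in 3 of 19 alternatives: DESeq2 (adjusted p = 0.0471), no filter on low counts (0.0377) and wild-type replicate 2 left out (0.0362).

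Scn2b, the most abundant of the 3 beta members per kb, read 406 and 387 CPM in wild type, 388 and 372 CPM in Shank3+/ΔC on vehicle, and 379 and 333 CPM with GSK-LSD1. The first pair of groups overlapped, and both treated libraries were below both wild-type libraries. The log2 fold change of Shank3+/ΔC on vehicle against wild type was -0.06 ± 0.11 (SE), 95% interval -0.29 to 0.17.

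Scn4b, the beta subunit linked to resurgent current and known for high levels in fast-firing and striatal neurons, read 37.9 and 37.1 CPM in wild type, 49.1 and 40.4 CPM in Shank3+/ΔC on vehicle, and 29.8 and 37.95 CPM with GSK-LSD1. The vehicle mutants were highest and overlapped neither other group. The log2 fold change of Shank3+/ΔC on vehicle against wild type was 0.26 ± 0.13 (SE), 95% interval -0.02 to 0.54, edgeR adjusted p = 0.405. The 10 striatal projection neuron markers used as a check of dissection summed to 236 to 283 CPM in the 6 libraries, and none of them was called in any comparison by edgeR, DESeq2 or limma-voom (1, 2 and 2 of 10 at an unadjusted p under 0.05 in the 3 comparisons by edgeR).

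Counted over the set, 4 of 7 subunits had both vehicle-mutant libraries below both wild-type libraries and 1 of 7 had them above. For all tested genes these shares were 23.1% and 23.1%.

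**Figure D2:**
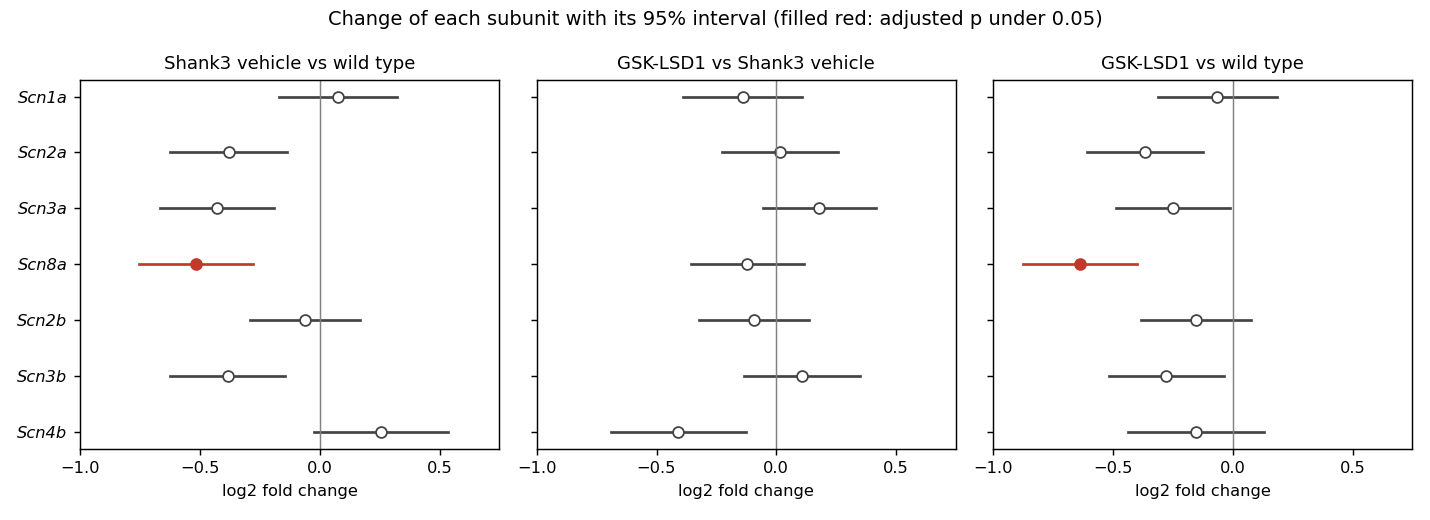
Log2 fold change of each subunit (x axis) with its 95% interval (line) in the 3 comparisons, from edgeR; filled red marks an adjusted p under 0.05. Scn8a is the only red point, at -0.52 in Shank3+/ΔC vehicle against wild type and at -0.64 in GSK-LSD1-treated Shank3+/ΔC against wild type, and no subunit is red in the comparison of drug with vehicle.

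The second comparison, GSK-LSD1 against vehicle within Shank3+/ΔC, asks what the inhibitor alters in the mutant. No sodium channel subunit passed: 0 of 7 in edgeR, 0 in DESeq2 and 0 in limma-voom, with 1 of 7 at an unadjusted p under 0.05 in edgeR. Over all genes 0.00535% were called lower and 0.102% higher. That 1 was Scn4b, with 44.8 ± 6.17 CPM (SD, n = 2) on vehicle and 33.9 ± 5.79 with GSK-LSD1, a log2 fold change of -0.41 ± 0.13 (SE), 95% interval -0.69 to -0.13, edgeR adjusted p = 0.584. Both treated libraries were below both vehicle libraries for Scn4b, and the nearest libraries of the groups, at 37.95 and 40.4 CPM, were closer to each other than the replicates within either group.

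For the other subunits the intervals give the sizes that remain possible. Scn8a was -0.12 (95% interval -0.36 to 0.12), Scn2a 0.02 (-0.23 to 0.26) and Scn1a -0.14 (-0.39 to 0.11) on the log2 scale. Scn3a was 0.18 (-0.06 to 0.42), Scn3b 0.11 (-0.13 to 0.35) and Scn2b -0.09 (-0.32 to 0.14). The 2 libraries per group do not separate a small change of the other subunits in either direction from none. The libraries of the groups stood apart downward for 2 of 7 subunits (Scn8a and Scn4b; 16.6% of all tested genes) and upward for 2 of 7 (Scn3a and Scn3b; 17.0% of all tested genes). The median of the 7 was -0.09, beside -0.00 for all tested genes.

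The third comparison sets GSK-LSD1-treated Shank3+/ΔC against wild type on vehicle, so genotype and drug differ together. It shares its wild-type libraries with the first comparison and its treated libraries with the second, and is not independent of either. Scn8a fell by 0.64 on the log2 scale (SE 0.11, 95% interval -0.87 to -0.40, 1.56-fold lower, edgeR adjusted p = 0.00857), from 661 ± 70.6 CPM (SD, n = 2) in wild type to 425 ± 7.96 CPM. It was again the only 1 of 7 to pass, at rank 55 by p, and 0 of 7 rose, while over all genes 1.99% were called lower and 0.636% higher. The call was kept in 18 of 19 alternatives, with the log2 fold change between -0.75 and -0.48. It was lost without wild-type replicate 1 (adjusted p = 0.198), a setting in which 2 genes were called lower and 4 higher in all.

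Scn2a was -0.37 ± 0.12 (SE) with an edgeR adjusted p of 0.108, and DESeq2 called it lower (adjusted p = 0.00811). Scn3b was -0.28 ± 0.11 (adjusted p = 0.240) and Scn3a -0.25 ± 0.11 (adjusted p = 0.291). Scn2b was -0.15, Scn4b -0.15 and Scn1a -0.06 on the log2 scale, with intervals that include 0. The treated libraries lay below both wild-type libraries for 5 of 7 subunits (22.4% of all tested genes) and above them for 0 of 7 (23.5%). The median of the 7 was -0.25, beside 0.02 for all tested genes.

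The order of the groups therefore differed between subunits. Scn8a ran from wild type through vehicle mutants to treated mutants, and the step between the mutant groups did not pass the test. Scn2a was highest in wild type with the mutant groups indistinguishable (909 ± 66.3 and 918.5 ± 75.1 CPM, SD, n = 2). Scn3a and Scn3b were highest in wild type and lowest in vehicle mutants, with treated mutants between them (99.3 ± 5.55 against 87.7 ± 1.80 CPM for Scn3a, 123 ± 8.17 against 114 ± 0.696 CPM for Scn3b), and neither step passed. Scn4b was highest in vehicle mutants. Scn1a and Scn2b had no neighbouring groups that differed beyond their spread.

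Together the 4 pore genes summed to 166 and 160.2 CPM per kb in the wild-type libraries, 133 and 122 in Shank3+/ΔC on vehicle, and 127 and 123 with GSK-LSD1. Both wild-type sums were above all 4 mutant sums, and the mutant groups overlapped. Scn2a made up 57.0% ± 1.29 (SD, n = 2) of the sum in wild type, 55.9% ± 0.645 in vehicle mutants and 57.6% ± 3.18 in treated mutants. The share of Scn8a was 25.7% ± 2.08, 23.0% ± 0.250 and 21.6% ± 0.977 in the same order. That of Scn1a was 11.5% ± 1.47, 15.6% ± 0.169 and 14.4% ± 2.39, and that of Scn3a stayed between 5.33% and 6.50% in all 6 libraries.

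**Figure D3:**
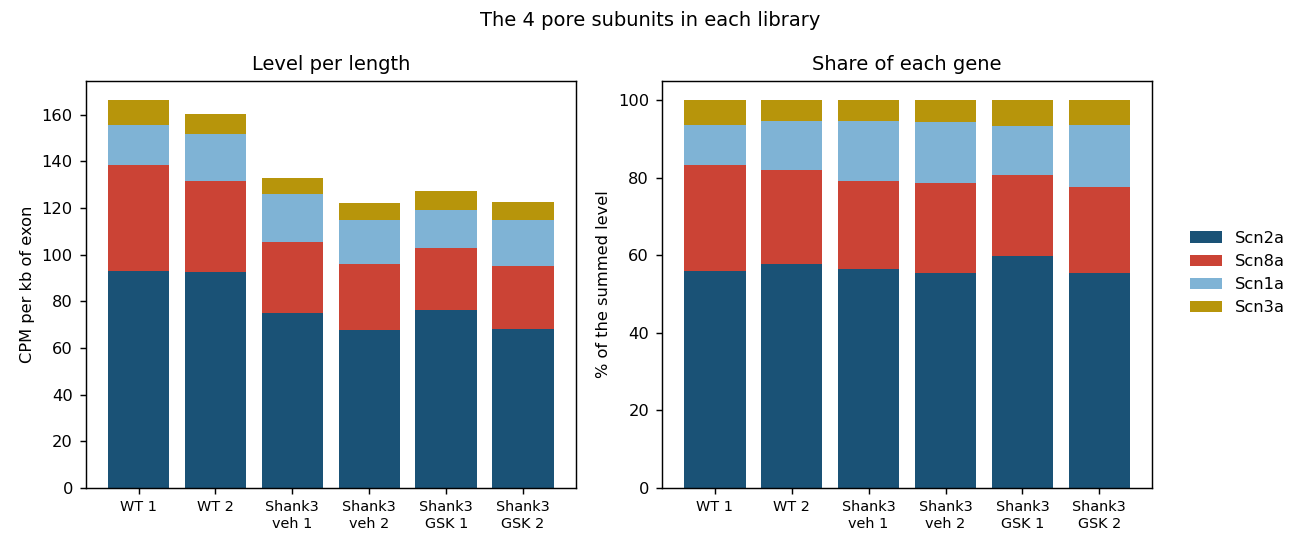
The 4 pore subunits in each library, stacked, as CPM per kb of exon (left, y axis from 0) and as a percentage of their sum (right). The summed height is 160.2 and 166 in wild type and 122 to 133 in the Shank3+/ΔC libraries, and the share of Scn8a is 24.2% and 27.1% in wild type against 20.9% to 23.2% in the others.

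The ratio of Scn8a to Scn1a, per kb, was 2.58 and 1.92 in wild type, 1.48 and 1.48 in Shank3+/ΔC on vehicle, and 1.64 and 1.38 with GSK-LSD1. All 4 mutant ratios were below both wild-type ratios. A ratio within a library does not depend on how the library was scaled, and it shows unequal change only. The ratio of Scn2a to Scn8a was 2.07 and 2.39 in wild type, 2.47 and 2.40 in vehicle mutants and 2.87 and 2.49 in treated mutants, so wild-type replicate 2 and vehicle-mutant replicate 2 were nearly equal. These were 2 of 5 ratios computed, and none was tested.

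Members were set beside the rest of the transcriptome by pattern. For each, the 3 nearest of 9267 genes were taken, by the root mean square difference of log2 levels centred over the 6 libraries. The genes nearest to Scn8a were Cic, Tubb4a and Tmem245 (0.04 each on the log2 scale, where the spread of Scn8a itself was 0.28), and those nearest to Scn2a were Madd, Cpeb3 and Lonrf2 (0.03 to 0.04, own spread 0.19). Scn3a and Scn3b were neighbours of each other, at 0.03: Scn3b ranked 2 of 9267 from Scn3a, after Synpo, and Scn3a ranked 3 from Scn3b, after Abcg4 and Synpo, while Dyrk1b completed the list of Scn3a. Scn1a was nearest to Atr, Mrrf and Fgfr1op2, Scn2b to Yy1, Larp4b and Fsd1l, and Scn4b to Zfp112, Zfp385b and Pigc. For the remaining members the nearest other member was Scn1a from Scn4b (rank 81), Scn2a from Scn8a (464), Scn3b from Scn2a (729), Scn4b from Scn1a (1858) and Scn2a from Scn2b (4391). With 6 libraries this likeness is a description.

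Of the 7 other voltage-gated sodium channel genes of the mouse genome, 4 were abundant enough to test, and 0 were called in any comparison by edgeR, DESeq2 or limma-voom (1 of 4 in each comparison at an unadjusted p under 0.05 by edgeR). Scn7a, which encodes a sodium-sensing relative, had a log2 fold change of -0.50 ± 0.18 (SE) in the first comparison (edgeR adjusted p = 0.215), with 15.5 and 20.2 CPM in wild type and 10.7 and 14.8 CPM in vehicle mutants. Scn9a stayed between 1.88 and 3.88 CPM. Scn4a, the muscle channel, and the sensory neuron channels Scn10a and Scn11a had 0 to 10 reads per library.

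Sodium channels are held at the axon initial segment and the node by a scaffold of ankyrin G (Ank3), spectrins and cell adhesion proteins, beside potassium channels that bind the same scaffold. Of 20 genes of this kind, Kcnq3, a subunit of the M-type potassium channel anchored there, was the only 1 called by edgeR in the first comparison, with none higher (DESeq2 also called Ank2 and Kcna2 lower). It fell from 313 ± 8.64 CPM to 227 ± 1.26 CPM (SD, n = 2), a log2 fold change of -0.46 ± 0.10 (SE, edgeR adjusted p = 0.0348). The next smallest p-values were those of Ank2, Kcna4 and Kcna2 (log2 fold changes -0.38, -0.32 and -0.32, adjusted p 0.144, 0.148 and 0.157). In the second comparison 0 of 20 passed in edgeR, DESeq2 or limma-voom (3 at an unadjusted p under 0.05 by edgeR: Kcnq3, Kcna2 and Nfasc, at -0.27, -0.24 and -0.29). The call on Kcnq3 in the first comparison was lost when any 1 of the 4 wild-type and vehicle-mutant libraries was left out (adjusted p = 0.0587 to 0.471).

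In the third comparison 3 of the 20 fell and none rose: Kcnq3 (-0.73, adjusted p = 0.00374), Kcna2 (-0.56, adjusted p = 0.0120) and Ank3 itself (-0.52, adjusted p = 0.0322, all by edgeR). Ank3 averaged 861 ± 84.1 CPM (SD, n = 2) in wild type, 685 ± 53.3 in vehicle mutants and 599 ± 84.5 in treated mutants. The median of the 20 was -0.23, -0.08 and -0.23 in the 3 comparisons. In the third, DESeq2 called 7 of the 20 lower and limma-voom 5, Ank3 among them in both. The edgeR call on Ank3 was kept in 13 of 19 alternatives, with the log2 fold change between -0.67 and -0.24. Library size scaling, a fit that was not robust, the 4 libraries of the comparison alone, and length and GC correction each lost it. The calls on Kcnq3, Kcna2 and Ank3 in the third comparison were all lost without wild-type replicate 1 (adjusted p = 0.0698, 0.155 and 0.427), and that on Ank3 also without GSK-LSD1 replicate 1 (0.124).

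Among 9 modulators of channel protein, which are the intracellular fibroblast growth factors, calmodulins and ubiquitin ligases, none passed in the first comparison with edgeR (1 at an unadjusted p under 0.05, and 1 in DESeq2, Nedd4l). None passed in the second (0 at an unadjusted p under 0.05, and 0 in DESeq2). Nedd4l, a ubiquitin ligase that removes channels from the membrane, fell in the third comparison by 0.43 on the log2 scale (edgeR adjusted p = 0.0316), from 235 ± 7.91 CPM to 175 ± 0.0367 CPM (SD, n = 2). Fgf13 and Fgf12, which bind the channel's C-terminal tail, had log2 fold changes of -0.20 and 0.09 in the first comparison and did not pass. The call on Nedd4l was kept with 1 library left out only when that was Shank3+/ΔC vehicle replicate 2, and its adjusted p was 0.0559 to 0.321 without any of the others. The median of the 9 was 0.03, -0.02 and -0.02 in the 3 comparisons.

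Of 19 regulators of neuronal transcripts, covering splicing factors, transcription factors and the REST and LSD1 corepressor genes, the only 1 called by edgeR in the first comparison was Mef2d, an activity-regulated transcription factor (DESeq2 called 2, Mef2d and Srrm4). It fell by 0.52 on the log2 scale, with an edgeR adjusted p of 0.0402. In the third comparison Mef2d (-0.55, adjusted p = 0.0191) and Srrm4 (-0.96, adjusted p = 0.0160) fell. Srrm4, a splicing factor for neuronal microexons, averaged 39.6 ± 11.6 CPM (SD, n = 2) in wild type and 20.3 ± 2.38 in treated mutants. Rest, the repressor of neuronal genes that works with LSD1, stood at 5.77 ± 1.09, 8.74 ± 1.31 and 8.96 ± 1.40 CPM in wild type, vehicle mutants and treated mutants, with log2 fold changes of 0.58 and 0.61 against wild type that did not pass (edgeR adjusted p = 0.216 and 0.168). None of the 19 passed in the second comparison by edgeR, DESeq2 or limma-voom (0 at an unadjusted p under 0.05). The medians were -0.07, -0.08 and -0.14. Without wild-type replicate 1 the calls on Mef2d (adjusted p = 0.586 and 0.353) and Srrm4 (0.188) were lost. Mef2d was also lost without either vehicle-mutant library in the first comparison (0.160 and 0.259) and without GSK-LSD1 replicate 2 in the third (0.131), and Srrm4 without GSK-LSD1 replicate 1 (0.0541).

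Markers of cell types moved between the same groups, and their part in the differences of the channel genes was not tested. All marker lists had reads for every gene in every library. Tbr1 and Nrgn were among the excitatory neuron markers that fell in the third comparison (-0.54 and -0.41, edgeR adjusted p = 0.0260 and 0.0463). The list of 10 excitatory neuron markers summed to 4307 to 4553 CPM in wild type, 3735 to 3760 in vehicle mutants and 3303 to 3808 in treated mutants, with medians of -0.27, -0.05 and -0.24. Of 10 inhibitory neuron markers 0 were called in the 3 comparisons by edgeR, DESeq2 or limma-voom (1, 0 and 0 at an unadjusted p under 0.05 by edgeR), with sums of 532 to 562, 523 to 597 and 507 to 589 CPM.

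Of 10 astrocyte markers, 2 rose in the first comparison (Aqp4 and Gja1, at 0.51 and 0.60) and 4 in the third, with sums of 3951 to 4860 CPM in wild type and 5366 to 5566 in the 4 mutant libraries. The 10 oligodendrocyte markers separated the libraries most. They summed to 2406 and 2231 CPM in wild type, 5639 and 5676 CPM in vehicle mutants, and 2269.7 and 5311 CPM in treated mutants, so GSK-LSD1 replicate 1 stood with wild type and replicate 2 with the vehicle mutants. None of them was called by edgeR (2, 0 and 0 at an unadjusted p under 0.05), and DESeq2 called 1 in the first comparison. With their level as a covariate, Scn8a was at -0.58 in the first comparison (adjusted p = 0.130) and at -0.67 in the third (adjusted p = 0.00383). In the first comparison these marker sums also separated the groups, so marker level and genotype cannot be told apart there. Scn8a read 419 and 431 CPM in GSK-LSD1 replicates 1 and 2, and a link to these markers was not tested.

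Of 8 oligodendrocyte precursor markers Gpr17 rose in the first comparison (0.94), and the list had medians of 0.58, -0.06 and 0.53 in the 3 comparisons, with sums of 195 to 214 CPM in wild type, 279 to 333 in vehicle mutants and 246 to 325 in treated mutants. Of 10 microglia markers Itgam was called higher there by edgeR (1.22) and limma-voom, while DESeq2 called 0 of the 10. Their sums were 358 to 414, 413 to 483 and 424 to 456 CPM. Of 10 endothelial and pericyte markers Itm2a and Rgs5 rose in the first comparison (0.48 and 0.58), with sums of 232 to 252, 289 to 339 and 258 to 274 CPM. Of 6 thalamus markers none was called by edgeR (1 in each comparison at an unadjusted p under 0.05), with sums of 113 to 161 CPM over all libraries. DESeq2 called 1 of them, Slc17a6, higher in the third comparison. Every edgeR marker call named here was lost without wild-type replicate 1 and also without at least 1 other library.

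**Figure D4:**
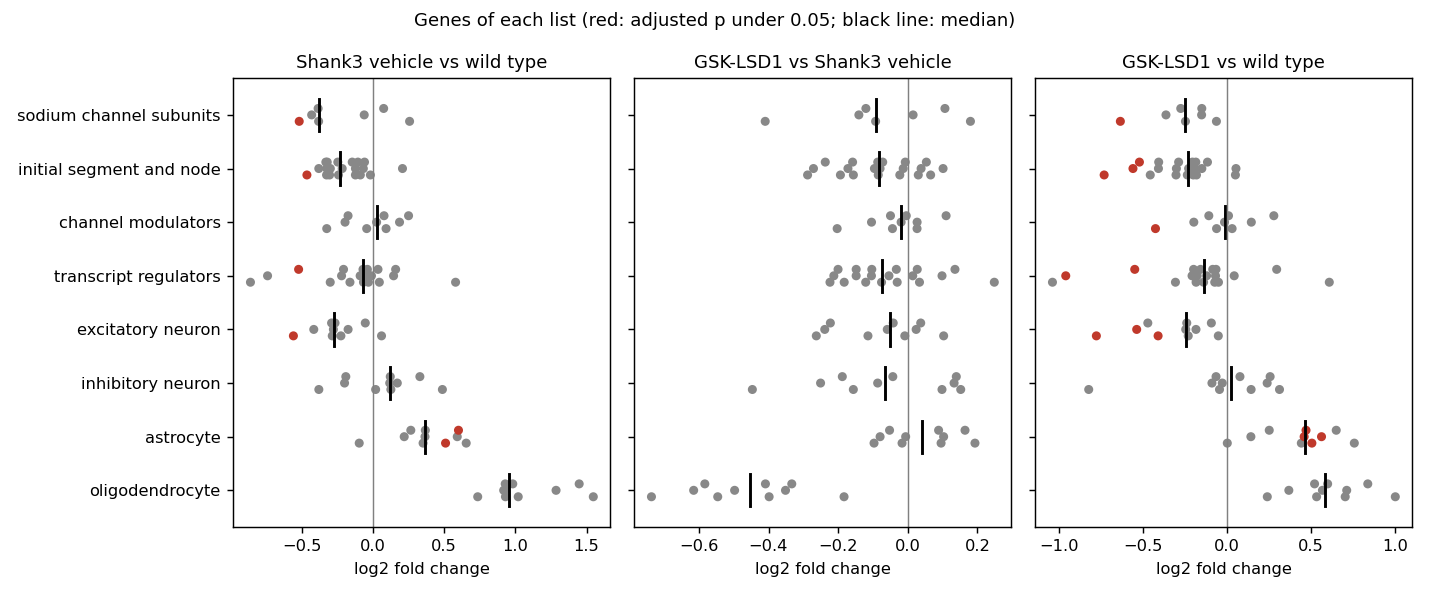
Log2 fold change of every gene (points) of the sodium channel set, the 3 partner lists and 4 cell type lists in the 3 comparisons, with the median of each list as a black line and genes with an edgeR adjusted p under 0.05 in red. The median of the sodium channel subunits is -0.38, -0.09 and -0.25 from left to right, and that of the oligodendrocyte markers 0.96, -0.45 and 0.58.

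Tested genes with 10 to 16 kb of exon, the range of the 4 pore genes, numbered 1100 once those with a low mean log2 CPM were left out. Their median log2 fold change was -0.08 (quartiles -0.24 and 0.07), -0.03 (-0.12 and 0.06) and -0.11 (-0.26 and 0.06) in the 3 comparisons. The 3 beta genes, of 4.66 to 5.46 kb, fall among 2292 genes of 4.5 to 6 kb above the same abundance limit, with medians of -0.02, -0.01 and -0.03. After per-library correction for exonic length and GC content Scn8a was at -0.36 in the first comparison and -0.48 in the third (adjusted p = 0.123 and 0.0286).

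**Figure D5:**
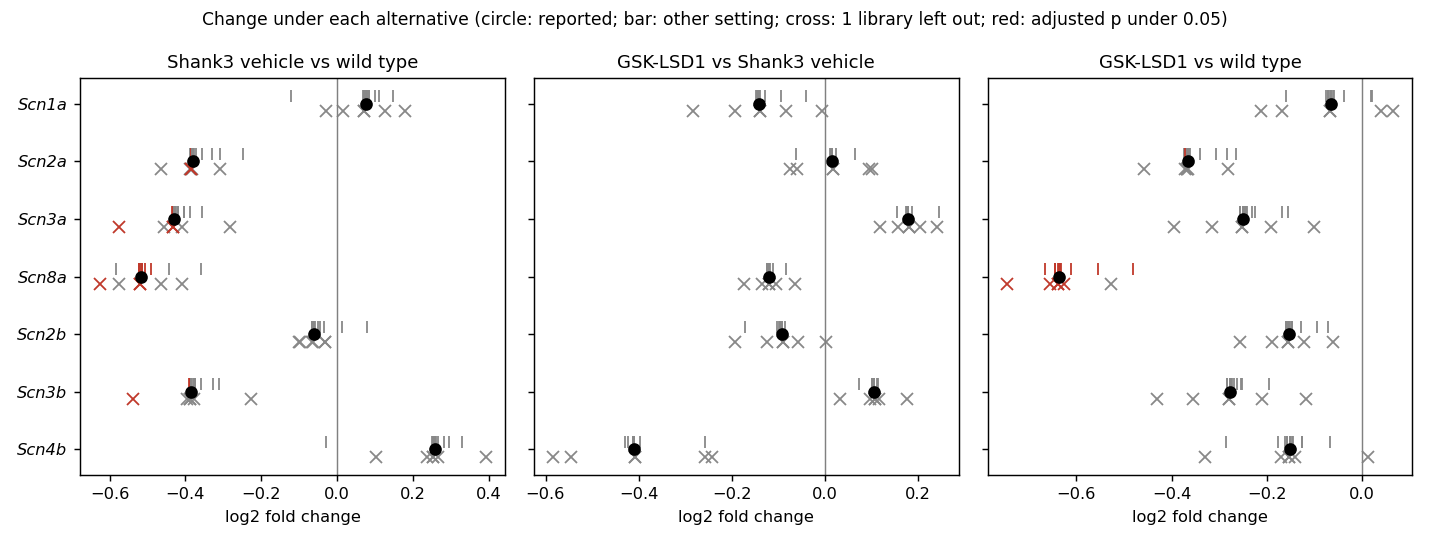
Log2 fold change (x axis) of each subunit under every alternative: black circles are the reported values, bars other settings, crosses fits with 1 library left out, and red an adjusted p under 0.05. Scn8a is negative throughout, between -0.63 and -0.36 against wild type on vehicle and between -0.75 and -0.48 with GSK-LSD1 against wild type, while Scn1a crosses 0 in both.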

How the data were processed

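The authors deposited 1 table of unnormalised read counts by symbol for each library. Per the labels' protocols, RNA was freed of DNA, depleted of ribosomal RNA and made into stranded libraries. Per the submitters' processing notes, the authors used cutadapt, TopHat2, SAMtools and featureCounts on mm10 (GRCm38), with edgeR also named. Tool versions, annotation release and strandedness of counting: not given in the sources used here. All 37 mitochondrial symbols listed were at 0.

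Counts were analysed in R 4.3.3 with edgeR 4.0.16 (filterByExpr, TMM, robust quasi-likelihood fit of 3 groups to all 6 libraries, 3 residual degrees of freedom, biological coefficient of variation 11.5%), with Benjamini-Hochberg adjustment over 18705 genes and a threshold of 0.05. DESeq2 1.42.0, limma 3.58.1, other scalings, filters and covariates, and fits with 1 library left out were alternatives. Exonic lengths, GC content and coordinates came from GENCODE M21. Replicates are different mice and were unequal beyond counting noise (chi-square divided by its degrees of freedom, 9.08 to 12.0). A floor of 3 counts corresponds to 0.105 to 0.212 CPM, and covers counting error only. The script was tested on simulated data. The members and gene lists were chosen with earlier results of these data known. Named were all members, called genes of each list, otherwise up to 4 with the smallest p, and the 3 nearest patterns of each member. Some genes of the lists and some sequences are not reported here.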

Additional observations from a re-analysis of the deposited data

How the results depend on the processing

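With 2 libraries per group the count of subunits called rested on single settings. Against wild type on vehicle it was 1 with the reported fit; it was 0 with library size scaling, a fit that was not robust, length and GC correction, the oligodendrocyte covariate or a threshold of 0.01, 3 without a filter, 4 in DESeq2, 2 at a threshold of 0.1, and 0 to 3 with 1 library left out. For GSK-LSD1 against wild type it was 1, and 2 in DESeq2, and 0 to 1 with 1 library left out. For GSK-LSD1 against Shank3 vehicle it was 0 in every alternative run. The causes were not tested, apart from the fewer samples of the fits with 1 library left out, in which the lone sample is assumed to vary like the other groups.

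Signs changed in 14 cases, none for a called subunit. With library size scaling Scn2b against wild type on vehicle was 0.0122 and Scn1a for GSK-LSD1 against wild type 0.0195; the latter was 0.0185 with length and GC correction. With the oligodendrocyte covariate Scn1a, Scn2b and Scn4b against wild type on vehicle were -0.122, 0.0778 and -0.0299, and Scn2a for GSK-LSD1 against Shank3 vehicle was -0.0606. With 1 library left out the ranges were -0.0285 to 0.180 for Scn1a on vehicle, -0.0735 to 0.102 for Scn2a and -0.192 to 0.00341 for Scn2b between drug and vehicle, and -0.212 to 0.0649 for Scn1a and -0.329 to 0.0122 for Scn4b between GSK-LSD1 and wild type.

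The genes called over all tested, 186 lower and 52 higher on vehicle against wild type, became 96 and 45 with upper quartile scaling, 20 and 15 with library size scaling, 10 and 1 without the robust fit, 518 and 289 without a filter, 452 and 138 in DESeq2, 326 and 198 with the 4 libraries alone, 84 and 47 with length and GC correction, and 50 and 3 with the oligodendrocyte covariate. Without 1 library they ran from 4 and 2 (wild-type replicate 1) and 3 and 5 (Shank3 vehicle replicate 1) to 421 and 235. For GSK-LSD1 against wild type, 372 and 119 became 142 and 111 with library size scaling 630 and 332 without a filter, 636 and 157 in DESeq2, 162 and 35 without GSK-LSD1 replicate 2, and 2 and 4 without wild-type replicate 1. For GSK-LSD1 against Shank3 vehicle, 1 and 19 became 18 and 88 without a filter and 2 and 33 in DESeq2, and ran from 2 and 8 (without Shank3 vehicle replicate 2) to 49 and 34 (without GSK-LSD1 replicate 2). Another scaling moved the median of all genes by less than 0.1.

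With the replicate number as a block, Scn8a was at -0.52 (adjusted p = 0.0393) and -0.63 (adjusted p = 0.0124) against wild type, no call on a subunit changed, and the genes called on vehicle were 155 lower and 78 higher. Nothing in the labels says that the numbers pair the animals; the correlations of deviations were -0.05, -0.06 and 0.08 over 13961 genes.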
